A study of Homo sapiens with 6 samples.

Results

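The nuclear lamina genes examined here are LBR, which encodes the lamin B receptor, with the 3 lamin genes LMNA, LMNB1 and LMNB2, the LEM-domain genes TMPO, EMD and LEMD3, the chromatin-bridging factor BANF1 and the SUN-domain genes SUN1 and SUN2. The 10 members were chosen by name from the authors' spike-in normalized table of 23026 genes. LBR came into view because of its low log2 fold change in this same comparison, so all values of shDYRK1A against shControl for the members are given as a description. No p is given for a member, and calls of the fit across all genes are counted only beside the share of all genes called. Every member was measured well enough to enter the comparison, which retained 9697 genes. Their mean spike-in normalized count was above 10 per 1000000 gene counts of the average library. Values in CPM are raw counts per 1000000 gene counts of the library itself.

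The cells were T98G, a human glioblastoma line, infected with lentivirus carrying either shControl or shDYRK1A, a short hairpin RNA against the DYRK1A kinase, and selected in puromycin before a recovery period without it. There were 3 libraries of each, named 1A, 1B and 1C, and both groups had been infected and selected in the same way. The same number of T98G cells per sample received a set amount of Drosophila Kc167 cells as a spike-in, and the authors derived a size factor per library from the fly reads. The labels give 1 hairpin name per group and 1 cell line and do not say whether the libraries came from separate infections, so any p-value measures the spread between these libraries only, which may be technical. Normalized counts are raw counts divided by the size factor, and library values are listed in the order 1A, 1B and 1C throughout. Among markers, VIM (1530 to 1975 CPM over the 6 libraries), CD44 (1401 to 1592 CPM) and FN1 (613 to 923 CPM) were abundant, whereas the neural and glial genes SOX2, GFAP and S100B were at or below 0.0949 CPM and NES and OLIG2 at or below 2.02 CPM. PTPRC, PECAM1, EPCAM, RBFOX3 and MOG, which mark other cell types, did not exceed 1.68 CPM.

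The lamina is a meshwork of A-type and B-type lamins beneath the inner nuclear membrane. LMNA gives rise to lamins A and C by alternative splicing, which gene counts do not separate, and LMNB1 and LMNB2 encode the B-type lamins. LBR binds B-type lamins and the heterochromatin protein HP1, and its membrane domain is a sterol reductase of cholesterol synthesis. LBR and lamin A/C are the known tethers of heterochromatin to the nuclear periphery. TMPO (lamina-associated polypeptide 2), EMD (emerin) and LEMD3 (MAN1) bind chromatin through BANF1, and SUN1 and SUN2 span the inner membrane to reach nesprins and the cytoskeleton.

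The promoter sequences of 9 of the members were present in the RefSeq table used here, with SUN1 as the exception. The 250 bases before the most upstream start that this table lists are shown for the 4 members with the lowest fold changes and for SUN2, the member with the highest, so that the sequences of the ends of the range can be compared. They are written 5′ to 3′ on the strand of the gene (GRCh38.p14), with motif matches in capitals. For LBR, LEMD3, TMPO and SUN2 these starts are not those of the GENCODE genes whose coordinates are given with the values. For LMNB1 the start is the same. The SUN2 window lies wholly within the GENCODE gene, those of LBR, LEMD3 and TMPO lie partly within it, and that of LMNB1 lies before it.
LBR, chr1:225428822-225429071, minus strand: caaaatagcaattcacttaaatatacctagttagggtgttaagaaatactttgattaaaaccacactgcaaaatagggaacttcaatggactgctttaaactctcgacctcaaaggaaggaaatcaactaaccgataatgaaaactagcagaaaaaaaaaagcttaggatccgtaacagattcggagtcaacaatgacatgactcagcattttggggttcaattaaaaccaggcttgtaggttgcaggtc
LMNB1, chr5:126776373-126776622, plus strand: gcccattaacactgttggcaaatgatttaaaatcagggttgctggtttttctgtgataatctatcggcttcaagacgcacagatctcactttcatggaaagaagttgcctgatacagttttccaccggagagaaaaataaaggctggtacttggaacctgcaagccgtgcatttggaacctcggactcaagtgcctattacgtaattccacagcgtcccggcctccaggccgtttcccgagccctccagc
LEMD3, chr12:65169333-65169582, plus strand: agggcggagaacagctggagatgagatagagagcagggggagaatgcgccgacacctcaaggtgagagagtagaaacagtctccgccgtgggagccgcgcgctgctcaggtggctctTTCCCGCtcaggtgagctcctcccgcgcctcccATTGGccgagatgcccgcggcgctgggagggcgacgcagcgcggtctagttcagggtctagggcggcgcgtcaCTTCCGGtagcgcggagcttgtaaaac
TMPO, chr12:98515323-98515572, plus strand: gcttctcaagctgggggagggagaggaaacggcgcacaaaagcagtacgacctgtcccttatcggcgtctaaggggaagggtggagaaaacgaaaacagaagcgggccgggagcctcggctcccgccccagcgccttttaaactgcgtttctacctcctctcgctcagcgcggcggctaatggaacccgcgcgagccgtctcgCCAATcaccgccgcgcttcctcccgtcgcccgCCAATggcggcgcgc
SUN2, chr22:38755999-38756248, minus strand: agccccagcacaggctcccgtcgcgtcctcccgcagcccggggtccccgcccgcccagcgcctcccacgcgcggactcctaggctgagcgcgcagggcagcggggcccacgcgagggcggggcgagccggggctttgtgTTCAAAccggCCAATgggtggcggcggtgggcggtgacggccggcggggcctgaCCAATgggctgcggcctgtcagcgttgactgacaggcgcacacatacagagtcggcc

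The capitals mark matches on either strand to 5 motifs, none of which overlapped another in these windows. As an exact match, the palindrome TCTCGCGAGA was found in 0 of the 9 windows and in 0.373% of the 35116 promoter windows of the same length. It is the element with which the study associates DYRK1A. The study graded it by conservation in ribosomal protein gene promoters, and less exact forms were not sought here. CCAAT, the NF-Y box, was found in the windows of LMNA, TMPO, EMD, LEMD3 and SUN2 (32.0% of all windows). TTTGAA or TTCGAA, the CHR element, was found in those of LMNB2 and SUN2 (14.3% of all windows). TTCCCGC, an E2F core, was found in those of LMNA, LEMD3 and BANF1 (5.52% of all windows), and CCGGAAG, a GABP core, in those of LMNB2, LEMD3 and BANF1 (8.52% of all windows). The LBR and LMNB1 windows held none of the 5, and had the lowest GC content of the 9, at 36.8% and 48.4%. The other 7 ranged from 57.2% for BANF1 to 74.8% for SUN2, and the median of all windows was 58.0%.

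DYRK1A, the target of the hairpin, was at 1895 to 2234 normalized counts in shControl and 1056 to 1482 in shDYRK1A, with a log2 fold change of -0.73 (standard error 0.15, adjusted p = 5.33e-06 in edgeR's quasi-likelihood test). Gene counts per library ranged from 33708297 to 42154438. The size factors were 0.821 to 1.03 in shControl and 1.06 to 1.21 in shDYRK1A, and the median gene had a log2 fold change of -0.40. A member is therefore also given relative to this shift, or with TMM scaling over the human genes, which sets the median to 0.00. DYRK1A itself was at -0.33 relative to the median gene, and 11.8% of all genes tested had a lower log2 fold change. In CPM it was at 46.7 ± 0.465 in shControl and 37.6 ± 3.41 in shDYRK1A (SD, n = 3 each). In bulk RNA, fewer cells that express a gene and less of its RNA per cell cannot be told apart. Unmapped reads moved with the groups (8.44 to 10.7% in shControl, 10.8 to 15.6% in shDYRK1A), as did mitochondrial transcripts (4.97 to 5.23% and 5.46 to 5.69% of gene counts), and their part in the results was not tested.

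In shDYRK1A cells the lamina transcripts did not move as a block. LBR was at 31.6% of its shControl mean, LMNB1 at 47.8%, LEMD3 at 52.8% and TMPO at 60.4%, whereas LMNA was at 71.8%, EMD at 77.7%, SUN1 at 79.9%, BANF1 at 83.5% and SUN2 at 93.4%. LMNB2, at 66.0%, lay between. With spike-in scaling, 4 of the 10 (LBR, LMNB1, LEMD3 and TMPO) met the thresholds for a lower gene used here (adjusted p below 0.05 and log2 fold change below -0.7), as did 14.3% of all genes tested. All members except BANF1 and SUN2, 8 in number, had an adjusted p below 0.05 in the lower direction, as did 63.4% of all genes. On leaving out 1 library this no longer held for EMD (shControl 1A, shControl 1B or shDYRK1A 1C left out) or for SUN1 (any but shControl 1C or shDYRK1A 1A left out), and it held for BANF1 when shControl 1C was left out. The libraries of the groups did not overlap for 8 members, against 65.2% of all genes. Because the members were taken from this comparison, nothing is read from these counts. The median log2 fold change of the members was -0.54 and ranged from -1.66 to -0.10.

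**Figure D1:**
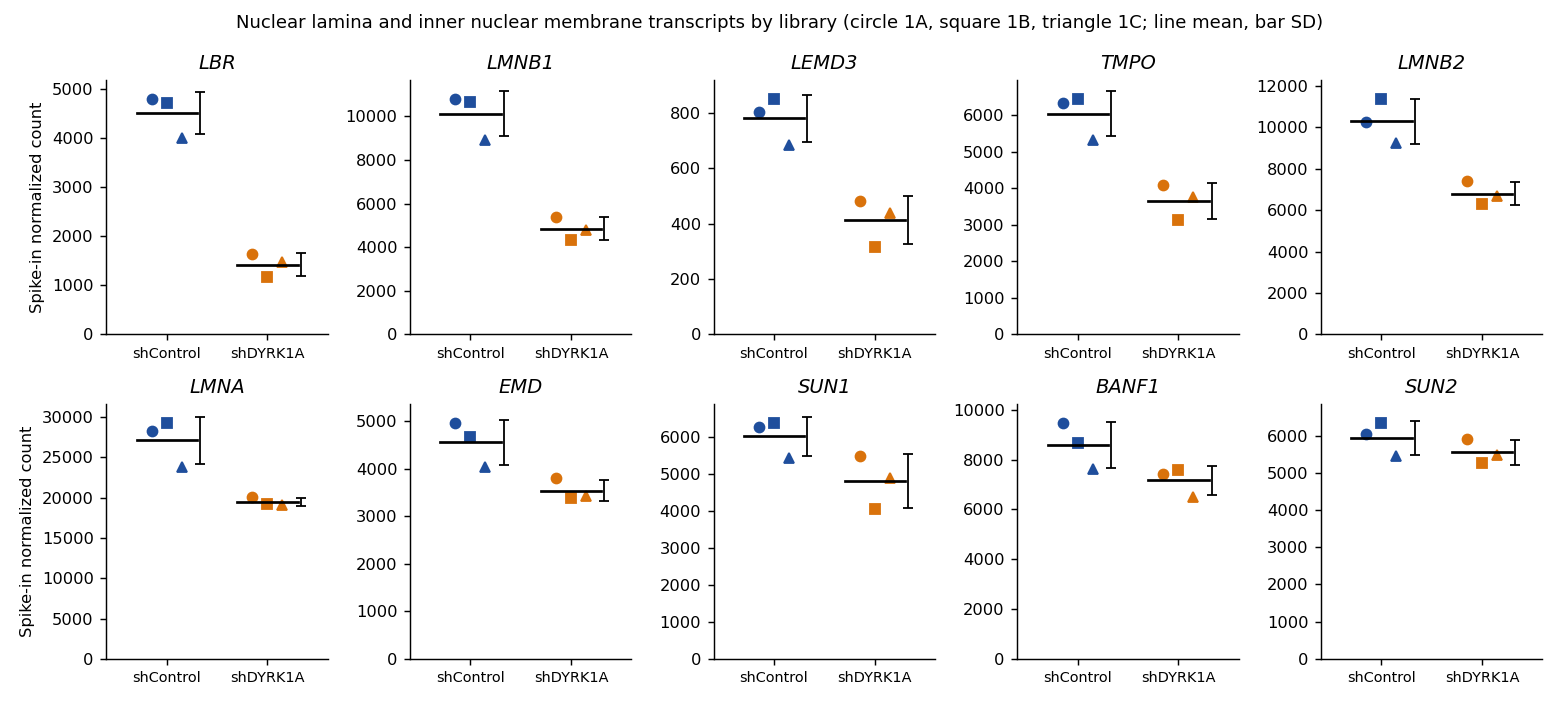
Spike-in normalized counts of the 10 members in each library, 3 per group (y axis from 0, own scale per gene), ordered by log2 fold change; lines are means and bars are SD. The LBR points of shDYRK1A lie between 1166 and 1646 and those of shControl between 4018 and 4812, while the SUN1 and SUN2 points of the groups overlap.

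LBR (ENSG00000143815, GRCh38 chromosome 1, 225401502 to 225428925, minus strand, protein coding) had 4812, 4723 and 4018 normalized counts in the shControl libraries against 1646, 1166 and 1469 in the shDYRK1A libraries. Each shDYRK1A library was thus far below each shControl library, and the gap was wider than either group. The means were 4518 ± 435 and 1427 ± 242 (SD, n = 3 each), which gave a log2 fold change of -1.66 (standard error 0.14), the value ranked 15 from the lowest of the 9697 genes. Without reference to the spike-in, shControl cells had 99.7 ± 0.800 CPM of LBR and shDYRK1A cells 42.1 ± 4.14 CPM (SD, n = 3 each). Relative to the median gene its log2 fold change was -1.26, the same value as with TMM scaling. Leaving out 1 library gave values from -1.78 to -1.54, the latter without shDYRK1A 1B.

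Of the lamin genes, LMNB1 stood furthest below the median gene, and LMNB2 and LMNA lay closer to it. LMNB1 (ENSG00000113368, chromosome 5, 126776623 to 126837020, plus strand) had 10813, 10655.5 and 8917 normalized counts in the shControl libraries against 5389, 4342 and 4791 in the shDYRK1A libraries. Its groups did not overlap, with a log2 fold change of -1.07 (standard error 0.14) and -0.66 relative to the median gene. In CPM the libraries of each group were close together, from 222 to 225 with shControl and from 139 to 147 with shDYRK1A.

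LMNB2 (ENSG00000176619, chromosome 19, 2427638 to 2456996, minus strand), the other B-type lamin gene, had 10265, 11382 and 9220.1 normalized counts in the shControl libraries against 7395, 6290.0 and 6691 in the shDYRK1A libraries. The groups did not overlap, and the log2 fold change was -0.60 (standard error 0.13), or -0.20 relative to the median gene. Of its exonic bases, 5.58% are shared on the same strand with TIMM13 and MIR7108, and reads there are not assigned with certainty. LMNA (ENSG00000160789, chromosome 1, 156082573 to 156140089, plus strand) had 28229, 29287 and 23849.6 normalized counts in the shControl libraries against 20037.5, 19282 and 19078 in the shDYRK1A libraries. Here too the groups did not overlap, with a log2 fold change of -0.48 (standard error 0.13). Relative to the median gene LMNA was at -0.08, and in CPM the libraries overlapped, with 598 ± 13.0 for shControl and 579 ± 35.8 for shDYRK1A (SD, n = 3 each).

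Among the LEM-domain genes, LEMD3 and TMPO were lower than the shift of all genes and EMD was not. LEMD3 (ENSG00000174106, chromosome 12, 65169571 to 65248327, plus strand), whose product also binds receptor-regulated SMADs, was the least abundant member. It had 803, 851 and 684 normalized counts in the shControl libraries against 483, 315 and 437 in the shDYRK1A libraries, without overlap. The log2 fold change was -0.92 (standard error 0.16), and it was -0.76 without shDYRK1A 1B, the lowest library. TMPO (ENSG00000120802, chromosome 12, 98515512 to 98550379, plus strand) had 6344, 6460.3 and 5336 normalized counts in the shControl libraries against 4081, 3127 and 3754 in the shDYRK1A libraries. Its groups did not overlap either, with a log2 fold change of -0.73 (standard error 0.14), just past the threshold of -0.7. It was no longer past it on leaving out shDYRK1A 1B (-0.63), shControl 1B (-0.68) or shControl 1A (-0.69). The antisense gene TMPO-AS1 covers 8.30% of the exonic bases of TMPO, and 2 annotated pseudogenes carry its name.

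EMD (ENSG00000102119, chromosome X, 154379197 to 154381523, plus strand) had 4959.7, 4669.6 and 4038 normalized counts in the shControl libraries against 3802, 3384 and 3431 in the shDYRK1A libraries. These did not overlap, but the log2 fold change of -0.36 (standard error 0.14) lay close to that of the median gene, and in CPM the groups overlapped (100.5 ± 2.76 against 105 ± 2.91, SD, n = 3 each). BANF1 (ENSG00000175334, chromosome 11, 66002079 to 66004149, plus strand), the DNA-binding partner of all LEM domains, had 9476, 8673 and 7613 normalized counts in the shControl libraries against 7416, 7568 and 6519 in the shDYRK1A libraries. The lowest shControl library and the highest shDYRK1A library differed by less than the spread within either group. Its log2 fold change was -0.26 (standard error 0.13), and its sign turned under TMM scaling (0.15). BANF1 has 5 annotated pseudogenes, and how reads shared with them were counted is not stated, so its count is less certain.

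The SUN genes were the members whose groups overlapped. SUN1 (ENSG00000164828, chromosome 7, 816615 to 896435, plus strand) had 6259, 6366 and 5409 normalized counts in the shControl libraries against 5481, 4039 and 4882 in the shDYRK1A libraries. SUN2 (ENSG00000100242, chromosome 22, 38734725 to 38794143, minus strand) had 6036, 6338 and 5448 normalized counts in the shControl libraries against 5909, 5257 and 5484 in the shDYRK1A libraries. Some shDYRK1A libraries of each lay above the lowest shControl library, with log2 fold changes of -0.32 (standard error 0.14) and -0.10 (standard error 0.14). As a share of the library, SUN2 was higher in every shDYRK1A library, at 165 ± 3.58 CPM against 131 ± 5.26 CPM for shControl (SD, n = 3 each). SUN1 overlapped on this scale too, with 142 ± 10.9 CPM for shDYRK1A and 133 ± 2.37 CPM for shControl (SD, n = 3 each). SUN1 shares 15.6% of its exonic bases with GET4 on the same strand, so that its count is less certain. Of the exonic bases of SUN2, 23.4% lie opposite other genes. This makes its count less certain if reads of both strands were counted, which was not checked here.

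**Figure D2:**
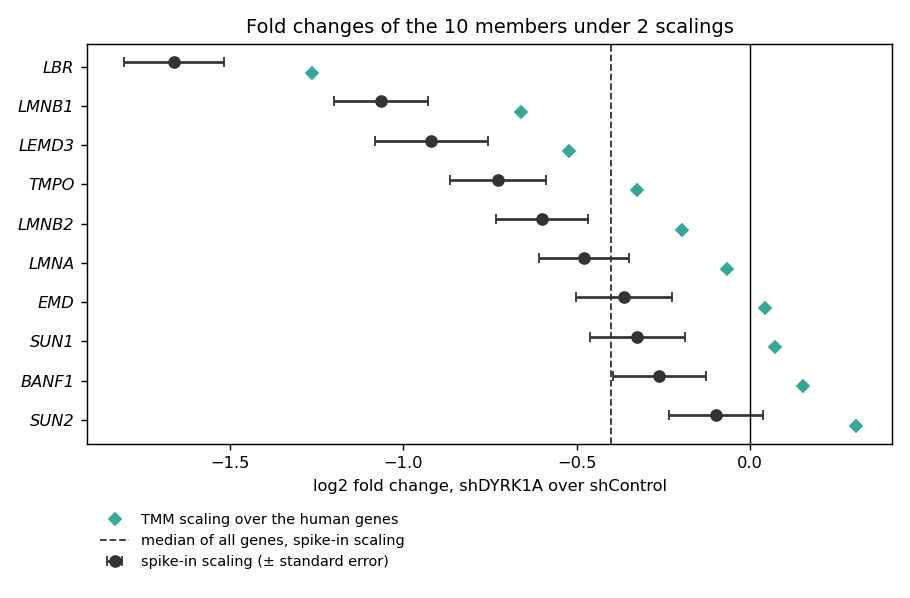
log2 fold changes of shDYRK1A over shControl for the 10 members with spike-in scaling (circles, bars are standard errors) and with TMM scaling (diamonds); the dashed line is the median of all genes with spike-in scaling, -0.40. LBR lies at -1.66 and SUN2 at -0.10 with spike-in scaling, and EMD, SUN1, BANF1 and SUN2 lie right of 0 with TMM scaling.

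With TMM scaling 5 members (LBR, LMNB1, LMNB2, LEMD3 and TMPO) had an adjusted p below 0.05 in the lower direction, as did 28.6% of all genes. SUN2 alone had one in the higher direction, as did 27.3% of all genes, and LMNA, EMD, BANF1 and SUN1 had none. The median of the members was -0.13 on this scale, against 0.00 for all genes. In CPM the same 5 members were lower in each shDYRK1A library than in each shControl library and SUN2 was higher in each. The share of all genes without overlap in CPM was not computed, so nothing is read from this count. Summed over the 10 members the level was 1830 to 1869 CPM in shControl and 1681 to 1754 CPM in shDYRK1A, which did not overlap.

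**Figure D3:**
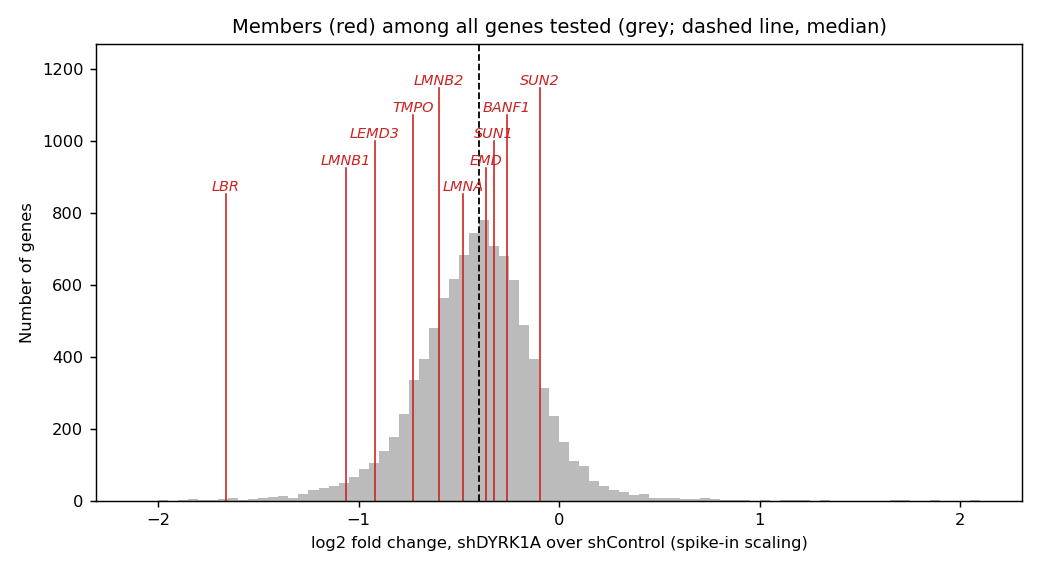
Distribution of the log2 fold changes of all 9697 genes (grey, 0.05-wide bins, spike-in scaling) with each member as a red line and the median of all genes dashed. LBR lies in the left tail, LMNB1 and LEMD3 in the left flank, and the other members within the bulk.

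Ratios of raw counts within a library need no size factor. They rest on the contrast that chose the members and are given without a test. The ratio of LBR to LMNA was 0.170, 0.161 and 0.168 in the shControl libraries against 0.0821, 0.0605 and 0.0770 in the shDYRK1A libraries. It was thus lower in every shDYRK1A library, with a difference of means of -1.20 on the log2 scale. The ratio of LMNA to LMNB1 was 2.61, 2.75 and 2.67 in the shControl libraries against 3.72, 4.44 and 3.98 in the shDYRK1A libraries, so that every shDYRK1A library held more LMNA per LMNB1 message (a log2 difference of 0.59). The ratio of LMNA to LMNB2 overlapped between the groups (2.64 ± 0.0984 against 2.88 ± 0.179, SD, n = 3 each). The ratio of SUN1 to SUN2 was 1.01 ± 0.0228 in shControl cells and 0.862 ± 0.0834 in shDYRK1A cells (SD, n = 3 each), without overlap. Of all counts on the members, LBR took 5.28 to 5.47% in shControl and 2.13 to 2.67% in shDYRK1A, and SUN2 took 6.86 to 7.31% and 9.59 to 9.70%.

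**Figure D4:**
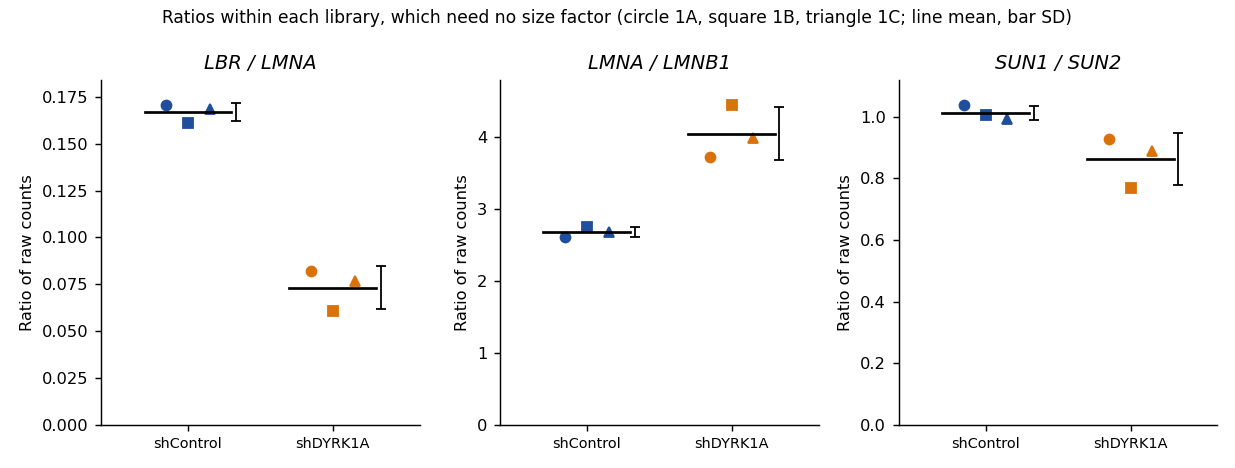
Ratios of raw counts of 2 members in each library, 3 per group (y axes from 0); lines are means and bars are SD. LBR over LMNA lies between 0.161 and 0.170 in shControl and between 0.0605 and 0.0821 in shDYRK1A, and the groups of the other panels do not overlap either.

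Levels of different genes were compared per kilobase of exon in shControl cells, a measure that the choice of members did not use. BANF1 was highest with 5220.2 ± 568 normalized counts per kilobase (SD, n = 3), followed by LMNA with 3883 ± 413, LMNB1 with 2788 ± 290 and EMD with 2255 ± 233 (SD, n = 3 each). LMNB2 followed with 1894 ± 199, SUN2 with 915 ± 69.7, LBR with 859 ± 82.8 and TMPO with 704 ± 71.9 (SD, n = 3 each). SUN1 and LEMD3 were lowest, with 509 ± 44.4 and 140 ± 15.4 (SD, n = 3 each). EMD and LMNB2, and SUN2 and LBR, were neighbors whose means ± SD overlapped, although the order was the same in all 3 shControl libraries. In shDYRK1A cells LBR moved from place 7 to place 9, at 271 ± 46.1 (SD, n = 3), below TMPO and SUN1, and EMD passed LMNB1. These changes of place restate the fold changes of the comparison that brought LBR into view. Exon lengths cover all annotated transcripts, so a gene with exons that these cells do not use is placed too low.

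Across the 6 libraries, LMNB1 (Pearson r 0.996), TMPO (0.990) and LEMD3 (0.954) had patterns of log2 CPM after TMM scaling like that of LBR, and SUN2 the opposite one (-0.975). The genes most like LBR were LONRF1, FAM120B and UBASH3B, each with r of 0.999, and 13.8% of all genes had r above 0.95. The 6 points fall into 2 groups and share their libraries, so these values are a description of the same contrast.

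Other genes of the nuclear envelope, its lamin-processing enzymes and the enzymes near LBR in sterol synthesis were tested as a list of 39, of which 32 passed the expression filter. Of these, 22 fell at an adjusted p below 0.05, none rose, and 10 did not pass, with a median log2 fold change of -0.50 against -0.40 for all genes. With TMM scaling 14 were lower, 8 higher and 10 not past the threshold, beside 28.6% lower and 27.3% higher among all genes. With spike-in scaling both the fallen share and the median are to be read beside the 63.4% and -0.40 of all genes.

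NRM, which encodes the multi-pass inner membrane protein nurim, went from 2187 ± 167 to 894 ± 77.6 normalized counts (SD, n = 3 each), a log2 fold change of -1.29 (adjusted p = 1.33e-15 in edgeR's quasi-likelihood test). NEMP1 (-0.94, adjusted p = 8.05e-10), TMEM43 (-0.60) and TMEM201 (-0.57), which also encode inner membrane proteins, fell too. TOR1AIP1 (-0.23) and TOR1AIP2 (-0.28), which encode activators of torsins, did not pass. The kinases VRK1 (-0.92) and VRK2 (-0.73), which release BANF1 from chromatin by phosphorylation, fell. LPIN2 (-0.96) and LPIN1 (-0.73), phosphatidate phosphatases whose yeast counterpart limits the growth of the nuclear membrane, fell, as did CNEP1R1 (-0.50), a subunit of their activating phosphatase. Its catalytic subunit CTDNEP1 (-0.21) did not pass.

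Among partners of the members, the nesprin genes SYNE2 (-0.62) and SYNE3 (-0.63) fell, whereas SYNE1 had a log2 fold change of 0.14 and did not pass. The LEM-domain genes ANKLE2 (-0.51) and LEMD2 (-0.42) fell. The HP1 genes CBX5 (-0.76), CBX3 (-0.62) and CBX1 (-0.40), whose products bind LBR, fell. ZMPSTE24 (-0.76, adjusted p = 1.37e-06), the protease that matures prelamin A, and ICMT (-0.31), which methylates the lamin tail, fell, while the prenyl-processing genes RCE1 (-0.20) and FNTA (-0.28) did not pass. Of the torsins, ATPases of the nuclear envelope, TOR1B (-0.50) fell and TOR1A (-0.22) did not pass. The envelope-resealing genes CHMP7 (-0.48) and VPS4B (-0.43) fell, and VPS4A (0.042) did not pass. These values include the shift shared by all genes. With TMM scaling SYNE1 (0.54), VPS4A (0.45), RCE1 (0.21), CTDNEP1 (0.20), TOR1A (0.19), TOR1AIP1 (0.17) and TOR1AIP2 (0.12) passed as higher. ANKLE2 (-0.11), TOR1B (-0.10), CNEP1R1 (-0.10), CHMP7 (-0.077), VPS4B (-0.026), LEMD2 (-0.016), CBX1 (0.0085), ICMT (0.093) and FNTA (0.12) did not pass on that scale. With spike-in scaling, the calls of ICMT (-0.33 to -0.25) and VPS4B (-0.44 to -0.32) were lost on leaving out any library but shControl 1C or shDYRK1A 1A. The call was also lost for CBX1 (-0.39 to -0.35) when shControl 1A, shControl 1B or shDYRK1A 1C was left out. LEMD2 lost it without shControl 1A (-0.36) or shDYRK1A 1C (-0.42), and CNEP1R1 without shControl 1B (-0.38) or shDYRK1A 1B (-0.37).

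The sterol enzymes were split. MSMO1, which demethylates sterols in the steps after the one LBR can catalyze, fell from 5556 ± 813 to 1823 ± 121 normalized counts (SD, n = 3 each), a log2 fold change of -1.61 (adjusted p = 1.12e-26) close to that of LBR. NSDHL (-0.27) did not pass, and DHCR7, a relative of LBR with another sterol double bond as its substrate, was at 4906 ± 493 and 5103 ± 188 normalized counts (SD, n = 3 each), a log2 fold change of 0.057 that did not pass. With TMM scaling DHCR7 (0.47) passed as higher and NSDHL (0.15) did not pass. TM7SF2, which encodes the other enzyme of the same reductase step as LBR, was below the expression filter. It had 180, 268 and 237 normalized counts in the shControl libraries against 356, 304 and 298 in the shDYRK1A libraries, so that the groups did not overlap and the direction was opposite to that of LBR. With edgeR's filterByExpr, which tested 17530 genes, its log2 fold change was 0.48 (adjusted p = 0.0209), and it did not pass without shControl 1A (0.34, adjusted p = 0.232), shDYRK1A 1A (0.40, adjusted p = 0.0748) or shDYRK1A 1C (0.53, adjusted p = 0.0583). The fits that left out a library were chosen after seeing the data. In the fit with filterByExpr, NEMP2 (-0.74, adjusted p = 0.00018) and ANKLE1 (-0.94, adjusted p = 0.0183) also passed, while CYP51A1, FNTB and SYNE4 did not, and LPIN3 was too low for it.

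**Figure D5:**
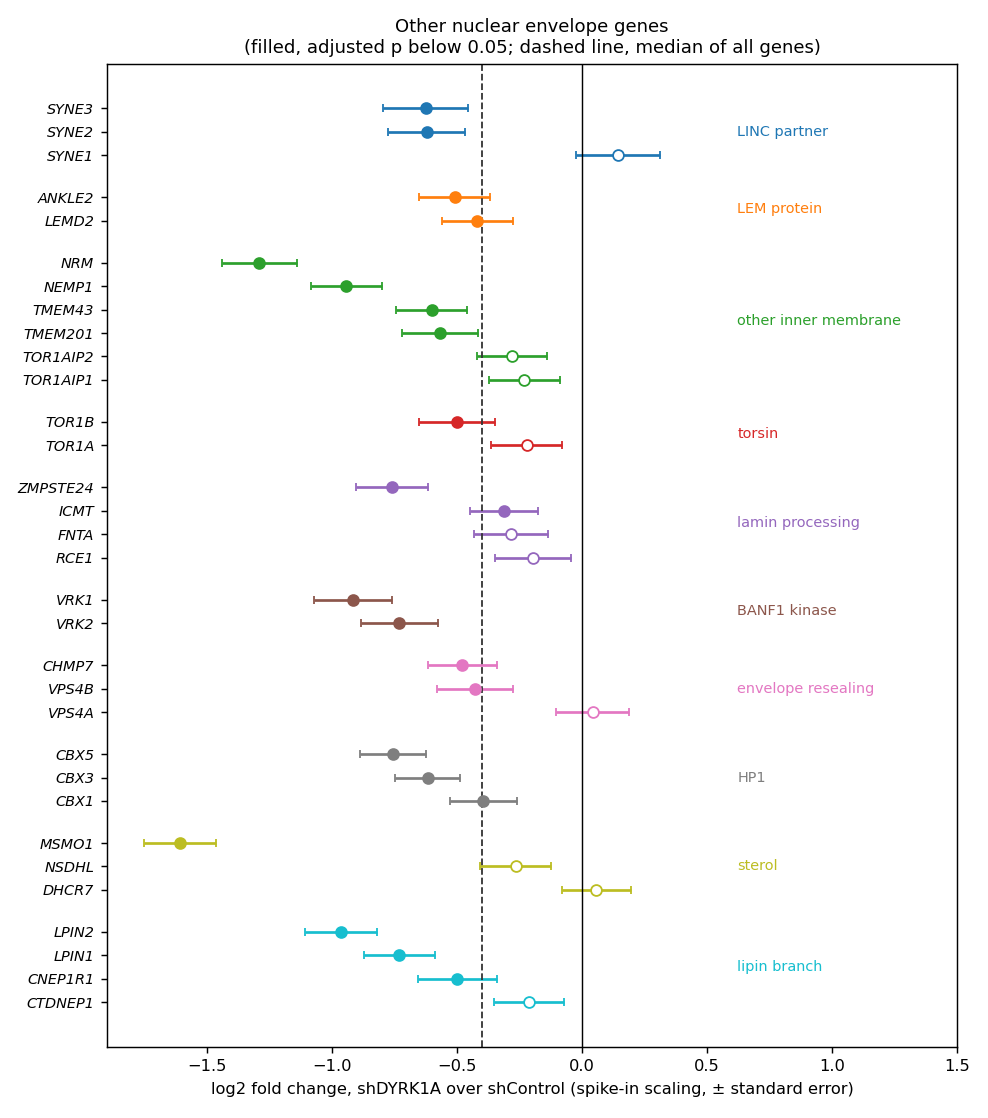
log2 fold changes with standard errors of the 32 other nuclear envelope genes past the filter, grouped by role (spike-in scaling; filled circles, adjusted p below 0.05; dashed line, median of all genes). MSMO1 (-1.61) and NRM (-1.29) lie furthest left, and SYNE1, DHCR7 and VPS4A lie right of 0 with open circles.

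Proliferation genes moved with the groups as well. All 15 genes of a proliferation list fell at an adjusted p below 0.05, as did 63.4% of all genes, with a median log2 fold change of -0.81 against -0.40. With TMM scaling 12 fell, beside 28.6% of all genes. On that scale PLK1 (-0.049), CCNB1 (-0.031) and AURKB (-0.075, named after its value was seen) did not pass. The lowest were RRM2 (-1.20) and PCNA (-1.02), which serve DNA synthesis, and the highest the mitotic genes PLK1 (-0.46) and CCNB1 (-0.44). The summed level of the list was 3481 to 3586 CPM in shControl and 2669 to 2890.2 CPM in shDYRK1A. Low LMNB1 is widely used as a sign of senescence, so genes of arrest were read beside it. Of 14 genes associated with arrest or senescence 9 passed the filter, and 4 of these fell, none rose and 5 did not pass with spike-in scaling, under which 63.4% of all genes fell. HMGB1 (-0.71) and RB1 (-0.65) were lowest, and GLB1 (-0.063) and the cell cycle inhibitor CDKN1A (0.23, adjusted p = 0.141) were highest. With TMM scaling CDKN1A (0.64) and GLB1 (0.34) rose, and 4 genes of the list passed in that direction in all, beside 27.3% of all genes. On that scale 4 passed as lower, beside 28.6% of all genes. HMGB1 and RB1 fell under both scalings. CDKN2A, IL6, CXCL8, IL1A and IL1B were below 10 CPM. The summed level of the list was 1081 to 1098 CPM in shControl and 1019 to 1025 CPM in shDYRK1A. The part of proliferation or arrest in the values of the members was not tested.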

How the data were processed

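The authors deposited raw gene counts per library (58174 genes) from stranded, poly(A)-selected paired-end reads. Per the labels STAR, DESeq2, hg38 and dm3 were used. The annotation is not given in the sources used here. A further deposited table holds signal, the counts divided by 1 size factor per library, for 23026 genes, and these factors, derived by the authors from fly reads, were recovered as the ratio of both tables. Fly counts were not used here. STAR's summary lines (18.9 to 25.0% of a library's reads) were left out of library sizes and tests. The authors' table of their own comparison (fold changes, p-values) was not used. Columns matching no sample numbered 0. Gene starts and ends equalled those of GENCODE v29 for 96.2% of genes.

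Genes above a mean of 10 normalized CPM (9697) were fitted with edgeR 4.0.16 (quasi-likelihood, robust) and adjusted by Benjamini-Hochberg. Standard errors are the log2 fold change over the square root of F. Alternatives were TMM, median of ratios, DESeq2 1.42.0, 2 other filters, a replicate block, each library left out and no fold threshold. Some listed genes are not reported here. The members and lists were chosen with earlier results of these data known. Named genes are the members, DYRK1A, the listed envelope genes, the 2 lowest and 2 highest of each context list, and the 3 genes most like LBR. R 4.3.3 and Python 3.11.15 were used.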

Additional observations from a re-analysis of the deposited data

How the results depend on the processing

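With TMM over the human genes 187 of the 9697 genes tested were lower and 121 higher, and with median of ratios 218 and 105. With spike-in scaling they were 1386 (14.3%) and 27. With either human-gene scaling, 1 of the 10 members (LBR) and 2 of the 32 other envelope genes tested were called lower. With spike-in scaling 4 and 9 were, beside the 14.3% of all genes, and nothing is read from the member counts. With filterByExpr, which tested 17530 genes, 2492 were lower and 229 higher. With no filter beyond 1 count, which also tested more genes than 9697, the totals were 2468 and 224. The totals of these 2 filters are thus not on the same number of genes as 1386 and 27. An adjusted p below 0.05 alone gave 6145 (63.4% of the 9697) lower and 105 higher, with 8 members and 22 other envelope genes lower. Leaving out 1 library, with the same 9697 genes, gave 908 (without shDYRK1A 1B) to 2093 (without shControl 1C) lower genes, and 2083 without shDYRK1A 1A. Higher genes numbered 16 (without shControl 1C) to 32. Of the 10 members 3 to 4 were then lower, and of the other envelope genes 5 (without shControl 1A or shDYRK1A 1B) to 11. The causes were not tested.

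The sign turned under TMM and median of ratios for EMD (0.043 and 0.0099), BANF1 (0.15 and 0.12), SUN1 (0.074 and 0.041), SUN2 (0.31 and 0.27), TOR1AIP1 (0.17 and 0.14), TOR1AIP2 (0.12 and 0.090), TOR1A (0.19 and 0.15), ICMT (0.093 and 0.061), RCE1 (0.21 and 0.18), FNTA (0.12 and 0.087), NSDHL (0.15 and 0.11), CTDNEP1 (0.20 and 0.16) and GLB1 (0.34 and 0.30), and under TMM for CBX1 (0.0085). It also turned on leaving out 1 library for VPS4A (-0.064 without shControl 1C and -0.016 without shDYRK1A 1A, up to 0.12), DHCR7 (-0.022 without shControl 1C, up to 0.12) and GLB1 (0.017 without shDYRK1A 1B, down to -0.16). An adjusted p below 0.05 was lost by LMNA under both human-gene scalings, by EMD without shControl 1A, shControl 1B or shDYRK1A 1C, by SUN1 and ICMT with no filter, and by SUN1 also on leaving out shDYRK1A 1B, shDYRK1A 1C, shControl 1A or shControl 1B. BANF1, TOR1AIP2, FNTA and NSDHL passed as lower with DESeq2. Without shControl 1C these genes and TOR1AIP1, TOR1A and CTDNEP1 passed as lower, as did TOR1AIP2 and FNTA without shDYRK1A 1A.

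The within-library ratios ranged, on leaving out 1 library, from -1.29 to -1.07 for LBR to LMNA, 0.52 to 0.65 for LMNA to LMNB1 and -0.29 to -0.15 for SUN1 to SUN2 (log2 differences). The labels do not say that same-lettered libraries are paired. Their deviations from the group means correlated at 0.15 for 1A, 0.07 for 1B and 0.13 for 1C, each library correlating best with its own letter. The replicate block gave 1394 lower and 28 higher genes and changed no call among the named genes.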
